A study of Gossypium hirsutum with 2 samples.

Results

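The genes described here encode proteins of chromatin, DNA repair, transcription, RNA processing and translation, and the authors assigned each at least 1 GhD53 peak from their promoter peak lists in upland cotton, Gossypium hirsutum. At 78 of them a peak lay in the gene's own promoter, and at 5 the assigned peak lay downstream of the start site, in the promoter of a neighbour. They were chosen by the words in the description of their best protein hit (histone, chromatin, topless, helicase, polymerase, repair, splicing, ribonuclease, RNA-binding, ribosomal protein, initiation or elongation factor, tRNA). Genes with a transcription factor family, with an organelle-genome record or with an organelle, kinase, ubiquitin, oxidase, dehydrogenase or transporter word were left out. The rule found 83 genes with 92 peaks among the 2111 genes and 2183 peaks of the longer of 2 deposited peak lists, or 3.93% of its genes. In the shorter list it found 33 genes and 36 peaks.

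GhD53 was made in vitro with an affinity tag and mixed with naked genomic DNA of cotton fiber, the single-celled seed hair. The 2 libraries were the affinity-purified (IP) fraction and the input fraction, 1 library each. The DNA carried no chromatin, and the labels give no cultivar, age or genotype of the plants. There is thus no replicate spread, no test between conditions, and no library purified without the protein to set beside the IP fraction. Pileup, fold enrichment and q-value of each peak are the authors' own values for IP against input, and the background is recovered from them. Both lists hold the same comparison of the same libraries and are not replicates, and the genome build of the coordinates is not stated.

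D53 proteins repress strigolactone signalling and are degraded when the hormone is perceived. In rice and Arabidopsis, members of this family carry a short repression motif that recruits TOPLESS corepressors, and TOPLESS in turn works with histone deacetylases to silence genes. Histones, histone chaperones and deacetylases set how DNA is packed, while RNA polymerases, splicing factors, RNases, ribosomal proteins and tRNA enzymes carry a gene's message to protein.

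The signal at most of these promoters was low and stepped by single fragments. At 65 of the 92 peaks the background stood at its lowest value, 0.608, so that fold depended on the pileup alone. Pileups of 4, 5, 6 and 7 fragments then gave 3.11-fold, 3.73-fold, 4.35-fold and 4.98-fold, and 1 fragment more added 0.622 to the fold. Taken as a count, a pileup of 4 has an exact Poisson 95% interval of 1.09 to 10.2, one of 7 an interval of 2.81 to 14.4, and one of 10 an interval of 4.80 to 18.4. These intervals overlap, so the order of these genes by fold is within counting error; the intervals cover that error only. At a pileup of 4 the −log10 q was 0.917, and 11 of the 92 peaks were at that level. A q of 0.05 or lower was reached by the other 81, against 79.0% of the peaks of the longer list, and a pileup of 10 or more by 21, against 9.85%. Of these 21 peaks 19 stood on a background of 2 or more; on a background under 2 it was 2 of 73 (2.74%), against 4.79% of the list.

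The 83 genes fell into 2 sets by background, split at 2 after the values were seen. At 70 genes with 73 peaks the background lay between 0.608 and 1.27 and the pileup between 4 and 13. At the other 13 genes, with 19 peaks, the background lay between 3.57 and 105 and the pileup between 24 and 369. Of these 13 genes, 11 had a bacterial protein record as best hit, with the name of a ribosomal protein or polymerase subunit that plastid genomes of land plants encode. The 13 genes are therefore described apart from the 70. The 13 genes carried 9.63% of the pileup summed over the longer list, and the 70 genes 1.46%. Over the whole list, peaks on a background of 2 or more carried 57.8% of the pileup, and the others 42.2%. Such a background was found at 19 of the 92 peaks, against 116 of the list's 2183, a difference not tested.

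**Figure D1:**
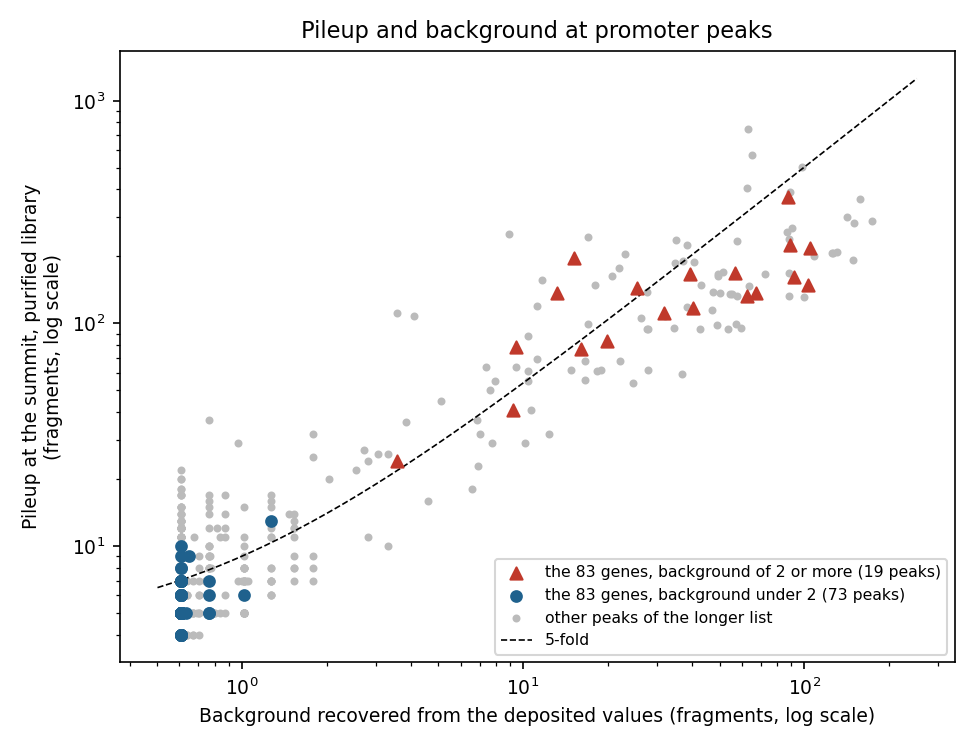
Pileup at the summit in the purified library (y, fragments) against the recovered background (x, fragments), both on log scales, for the peaks of the 83 genes and all other peaks of the longer list; the dashed line marks 5-fold. The 73 peaks on a background under 2 have pileups of 4 to 13, and the 19 others have pileups of 24 to 369.

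Among the 9 genes of corepressors, chromatin and histones, the TOPLESS-type corepressor gene GH_A08G2546 (Topless-related 1) and the histone variant gene GH_D08G0502 (H2AX, the variant phosphorylated at DNA breaks) had the highest values. Each had a pileup of 7 against a background of 0.608, which is 4.98-fold with a −log10 q of 3.17, and each was in both lists. The peak of GH_A08G2546 lay 469 bp upstream of the start site, on chromosome A08 from 122292492 to 122292661. That of GH_D08G0502 lay 1877 bp upstream, on D08 from 5185082 to 5185308. They shared the same pileup but sat at opposite ends of their promoters.

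The 3 genes described as histone deacetylases, a family named for removing acetyl groups from histones, followed below that level. GH_A12G1773, described as a probable histone deacetylase 19, the class that works with TOPLESS in Arabidopsis, had a pileup of 6 against 0.608 (4.35-fold, 1642 bp upstream) in the longer list alone. GH_A05G4038 (histone deacetylase 14-like) had the same pileup and fold, 1855 bp upstream, and was in both lists. GH_A03G0747 (histone deacetylase 6-like) had a pileup of 4 (3.11-fold, 1650 bp upstream). All 3 peaks lay more than 1500 bp from the start site, as did 32.2% of the list's upstream peaks on a background under 2. With 3 peaks, this position was not tested as a trait of these genes.

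Both Histone H3.2 genes, GH_D08G0369 and GH_D10G1093, which encode a core histone, had a pileup of 5 and 3.73-fold, 1490 and 797 bp upstream. The histone chaperone gene GH_D11G1777 (ASF1B, which hands H3 and H4 to assembling nucleosomes) also had a pileup of 5, with its peak only 114 bp upstream. The H2A-like gene GH_A01G2369 had a pileup of 4 and 3.11-fold, 699 bp upstream. Of the 9 genes 3 were in both lists, against 32.3% of the list's genes on a background under 2, and 0 of the 9 peaks reached 5-fold, against 10.8% of such peaks. Counts this small do not set these genes apart from the list.

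The 6 DNA replication and repair genes were led by GH_A07G0387, described as the repair protein RAD5, which acts on stalled replication forks in yeast. Its pileup was 13 against a background of 1.27, the highest pileup among the 70 genes, which gave 6.16-fold and a −log10 q of 6.22. The peak lay 960 bp upstream, on A07 from 3976331 to 3976540, and was in both lists. The other 5 genes all had a pileup of 5. GH_A07G0859 (RAD4, a damage recognition factor of nucleotide excision repair; in both lists) lay at 3.73-fold and 447 bp upstream. GH_A11G0833 (KU80, which binds broken DNA ends) and GH_A11G1274 (the XPD helicase, shared by excision repair and the general transcription factor TFIIH) had 3.73-fold in the longer list alone. So did a DNA polymerase IV-like gene, while a gene for the translesion polymerase kappa had 3.40-fold and was in both lists. All 6 genes lay on A chromosomes, against 49.2% of the list's peaks on a background under 2. This difference was not tested.

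Of the 10 transcription genes on a low background, 6 encode subunits of nuclear RNA polymerases. The 3 genes for rpac1, a subunit shared by RNA polymerases I and III, differed in pileup. GH_D03G0831 had 9 against 0.608 (6.22-fold, −log10 q 5.25, 1367 bp upstream, in both lists). GH_D02G1727 had 7 (4.98-fold, 784 bp upstream) and GH_D04G0131 had 6 against 0.764 (3.97-fold, 1678 bp upstream), both in the longer list alone. The peak of GH_D03G0831 lay on D03 from 26184224 to 26184380.

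The genes GH_A03G0052 and GH_D03G1912, both described as RNA polymerase I subunit rpa49-like, had pileups of 6 and 5 (4.35-fold and 3.73-fold). Their peaks lay 855 and 617 bp downstream of the start site, in an intron, and were assigned by the authors to the promoter of a neighbour. GH_D10G0267, a phosphatase-like protein of the RNA polymerase II C-terminal domain, had a pileup of 6 (4.35-fold, 1100 bp upstream). The remaining 4 genes, for subunits 12 and 15 of TFIID, Mediator subunit 2 and subunit 5A of RNA polymerases II and IV, had pileups of 4 or 5. Of the 10 genes 1 was in both lists, against 32.3% of the list's genes on a background under 2, and 9 of the 10 peaks lay on D chromosomes, against 50.8% of such peaks; neither difference was tested.

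Translation was the most populous role, with 25 genes and 28 peaks on a low background. The cytosolic ribosomal protein genes, 10 in number, spanned 3.47-fold to 5.60-fold. The highest was GH_D05G2803 (60S L10-like), with a pileup of 8 against 0.608, 1409 bp upstream, and it was the 1 gene of the 10 in both lists. The other 9 had pileups of 5 to 7 and comprised L19 (2 genes), S23 (2), S10 (2), S7, L5 and L9.

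The tRNA ligases, which load tRNAs with their amino acids, had 4 genes and 6 peaks. GH_A02G0932 (lysine--tRNA ligase) had a pileup of 9 against 0.646 (6.07-fold, −log10 q 5.08) at 267 bp upstream, on A02 from 24931702 to 24931933. It had a further peak of pileup 5 (3.67-fold) at 698 bp. GH_A01G1939 (serine) and GH_D01G0567 (alanine) each had a peak of pileup 7 (4.98-fold, 1622 and 1255 bp upstream), and GH_D01G0567 had another of 5 at 1991 bp. A valine ligase gene had a pileup of 5. The lysine and serine ligase genes were in both lists, 2 of 4, against 32.3% of the list's genes on a background under 2. This count is too small to set them apart.

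Among 5 genes of tRNA or rRNA modification, GH_A07G2325, a fibrillarin-like 2'-O-methyltransferase of the nucleolus, had the highest pileup, 7 (4.98-fold, 977 bp upstream). A tRNA guanine dimethyltransferase gene had 6, and genes for a thiouridylase, a pseudouridine synthase and a dihydrouridine synthase had 5, 5 and 4. The 6 genes of translation factors had pileups of 4 to 6. GH_A13G1196 (eIF-2B subunit epsilon, part of the exchange factor that reloads eIF-2 with GTP) had peaks of pileup 6 (4.35-fold, 1293 bp upstream) and 4 (3.11-fold, 628 bp upstream) and was the 1 factor in both lists. The remaining factors were eIF-3 subunit M, eIF-5A, elongation factor 2 and 2 genes for elongation factor 1-alpha. The 1 of 6 factors in both lists stands against 32.3% of the list's genes on a background under 2, a difference not tested.

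The 18 genes of RNA helicases, splicing, decay and RNA-binding included the highest fold of the 70 genes. GH_D01G2432, the serine/arginine-rich splicing factor RS2Z33-like, had a pileup of 10 against 0.608 (6.84-fold, −log10 q 6.38), 1818 bp upstream on D01 from 63408586 to 63408748. By fold this peak ranked at 81 of 2183, tied with other peaks of the same fold. The list held 23 peaks of pileup 10 on the lowest background. GH_A06G1066 (DEAD-box RNA helicase 56-like, of a family that unwinds RNA in splicing and mRNA export) and GH_D13G0534 (RNA-binding protein 12-like) followed with a pileup of 7 (4.98-fold, 1890 and 1229 bp upstream). GH_A02G1193 (nuclear speckle RNA-binding protein B-like) had a pileup of 6 (4.35-fold, 1649 bp upstream). These 4 genes were in both lists. Of the 18 genes in all, 6 (33.3%) were, against 32.3% of the list's genes on a background under 2.

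Of the 4 serine/arginine-rich splicing factor genes 2 were in both lists, RS2Z33 and an RSZ21-like gene of pileup 6, while SCL28 and SCL30 had a pileup of 5. The 6 ribonuclease genes on a low background had pileups of 4 to 6. Of these 6, 0 were in both lists (Wilson 95% interval 0 to 39.0%), an interval that includes the 32.3% of the list on a background under 2, and the ribonuclease gene on a raised background, GH_D11G1644, was in both. They include GH_A12G1843 and GH_D12G1839, described as ribonuclease 1-like; the Arabidopsis enzyme of that name is secreted. Genes of ribosome assembly (NOB1-like and pno1-like) had pileups of 6 and 4. DExH6-like and DExH8-like helicase genes had 5 each, and a gene for RNA-dependent RNA polymerase 2, of the pathway of DNA methylation directed by small RNAs, had 4. The 2 other helicase genes were both in both lists, a count too small to set beside the list's 32.3%. GH_D08G2595, named after a fission yeast helicase, had a pileup of 8 (5.60-fold, 390 bp upstream). GH_D12G1060 (SKI2W, of the exosome-associated SKI complex) had 7 against 0.764 (4.53-fold, 1163 bp upstream).

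**Figure D2:**
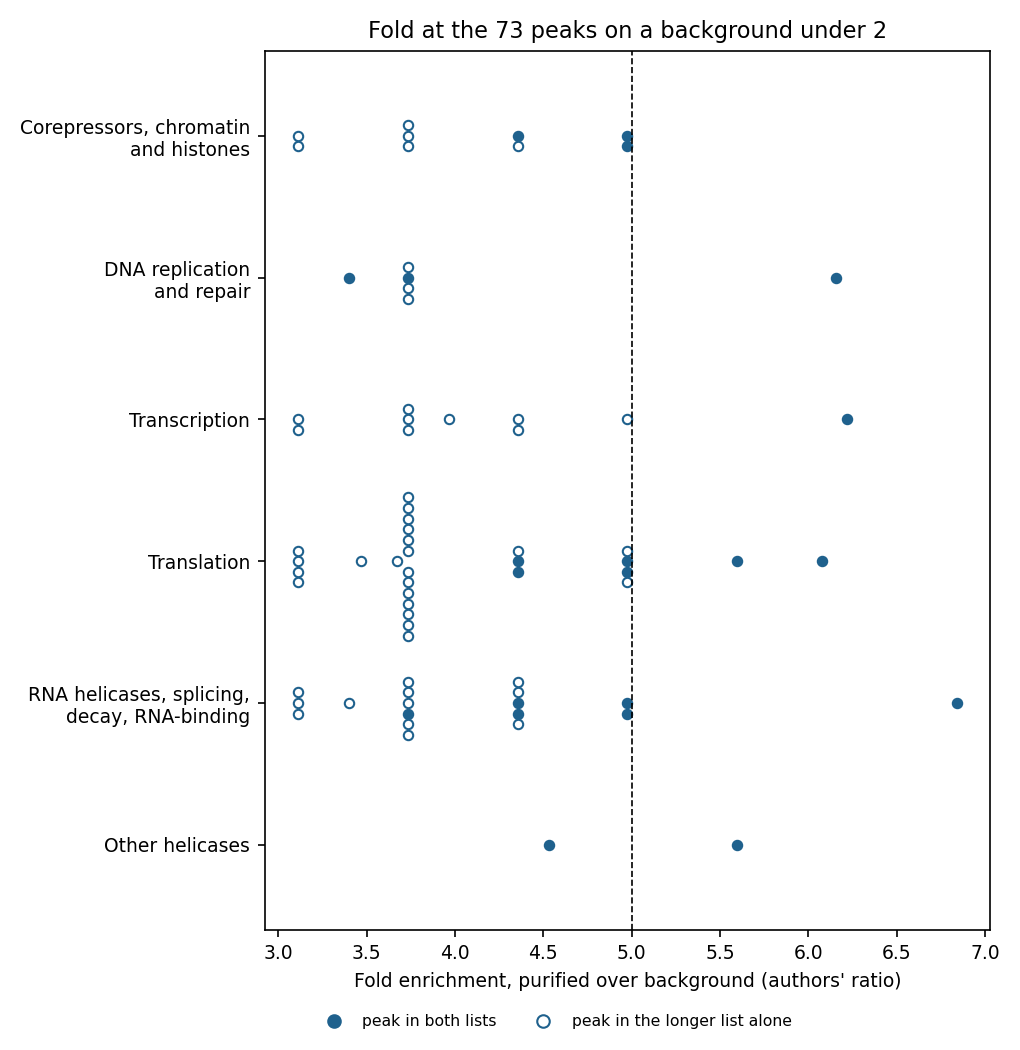
Fold enrichment (x, the authors' ratio) of the 73 peaks of the 70 genes on a background under 2, 1 row for each role, points shifted vertically to show ties; filled points are peaks in both lists and the dashed line marks 5-fold. Folds fall on steps of 1 fragment, and 6 peaks lie at 5-fold or more, led by RS2Z33 at 6.84-fold.

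The 13 genes on a raised background were different in scale. The highest fold of all 83 genes, 12.2, was assigned to GH_D02G1279, whose best hit is named 30S ribosomal protein S3, a component of the plastid ribosome's small subunit. Its pileup of 196 stood against a background of 15.2 (−log10 q 136). This peak lay 1160 bp downstream of the gene's start site, on D02 from 38349161 to 38349380, and was annotated to the promoter of the neighbouring gene GH_D02G1278. The same gene had a peak of pileup 77 against 16.0 (4.58-fold) at 50 bp upstream and another of 161 against 91.7 (1.75-fold) at 1288 bp upstream.

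The S3-named gene GH_A13G1011 showed a like arrangement. A peak of pileup 137 against 13.3 (9.68-fold) lay 1144 bp downstream in the promoter of GH_A13G1010, and another of 24 against 3.57 (5.47-fold) lay 275 bp upstream. The S3-named gene GH_A09G1191 had a pileup of 78 against 9.46 (7.55-fold) 848 bp upstream. Of the 19 peaks of the 13 genes, 5 (26.3%) were at 5-fold or more, against 33.6% of the list's peaks on a background of 2 or more. The 3 genes named for S3 held 4 of these 5 peaks.

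The 3 genes named 30S ribosomal protein S11 had 4.13-fold to 5.48-fold. They were GH_A08G0696 at 144 against 25.5 (5.48-fold), GH_A12G0232 at 166 against 39.1 (4.16-fold) and GH_A05G4164 at 41 against 9.17 (4.13-fold). The peak of GH_A05G4164 lay 1377 bp downstream of its start site, in the promoter of GH_A05G4165. The 2 genes named for the alpha subunit of the plastid-encoded RNA polymerase were GH_A12G2485, with the highest pileup, 369, against 87.4 (4.19-fold), and GH_A12G0233 with 117 against 40.3 (2.86-fold). The peak of GH_A12G0233 lay 644 bp downstream of its start site, in its coding sequence and the promoter of GH_A12G0234. GH_A12G0232 and GH_A12G0233 are numbered as adjacent genes.

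GH_A11G1884 (S2) had peaks at 4.02-fold and 3.47-fold. GH_D08G1322 (S14) had a pileup of 218 against 105 (2.07-fold), and GH_D12G1021 (S7) had pileups of 137 against 67.5 (2.01-fold) and 149 against 103 (1.44-fold). The L2-named gene GH_D11G0685 had 133 against 62.7 (2.10-fold), centred 19 bp downstream of its start site, in its coding sequence and the promoter of GH_D11G0686. The tall peaks of S14, S7 and L2 stood on high backgrounds. Their folds were below the 3.11 of a 4-fragment peak on the lowest background. All 19 peaks of the 13 genes stood on a background of 3.57 or more, but its size differed between peaks of high pileup. The peak of pileup 196 at the S3-named gene GH_D02G1279 stood on 15.2 (12.2-fold), which is raised but below the backgrounds of S14, S7 and L2. Where these fragments came from was not tested.

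Outside these plastid-type names, 1 gene had a raised background, GH_D11G1644, described as ribonuclease 3-like protein 3, of the RNase III type that cuts double-stranded RNA. Its peaks had pileups of 226 against 88.7 (2.53-fold, 1766 bp upstream) and 168 against 56.8 (2.92-fold, 1077 bp upstream). GH_A11G1612, with the same description on A11, had a pileup of 6 against 0.608 (4.35-fold, 1257 bp upstream). The copy with more fragments had the lower fold.

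Set beside the whole list, the 83 genes did not stand apart in fold. Their median fold was 3.73 (order-statistic 95% interval 3.73 to 4.13) and that of all 2183 peaks was also 3.73. That value is the step of a pileup of 5 on the lowest background, where 691 of the list's peaks lay, so equal medians alone say little. Of the 92 peaks 11 (12.0%, Wilson 95% interval 6.81 to 20.2) were at 5-fold or more, against 12.0% of the list. A peak of pileup 7 on the lowest background lies just under that threshold, and 9 of the 92 peaks were there; at 4.5-fold or more the share was 23.9%, against 20.4% of the list. Of the 83 genes 33 (39.8%, 29.9 to 50.5) were in both lists, against 34.3% of all genes.

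The share of peaks with a q of 1e-05 or lower was 22 of 92 (23.9%, 16.4 to 33.6), against 10.4% of the list, but 18 of the 22 belonged to the 13 genes on a raised background. These 18 were 94.7% of the peaks of the 13 genes, against 85.3% of the list's 116 peaks on a background of 2 or more. At the 70 other genes the share at this q was 4 of 73 (5.48%, 2.15 to 13.3), against 6.19% of the list's 2067 peaks on a background under 2. Within the same limit, 6 of 73 peaks (8.22%, 3.82 to 16.8) were at 5-fold or more, against 10.8%, and 21 of 70 genes (30.0%, 20.5 to 41.5) were in both lists, against 32.3%. These shares are near those of the list, and no test between them was made.

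**Figure D3:**
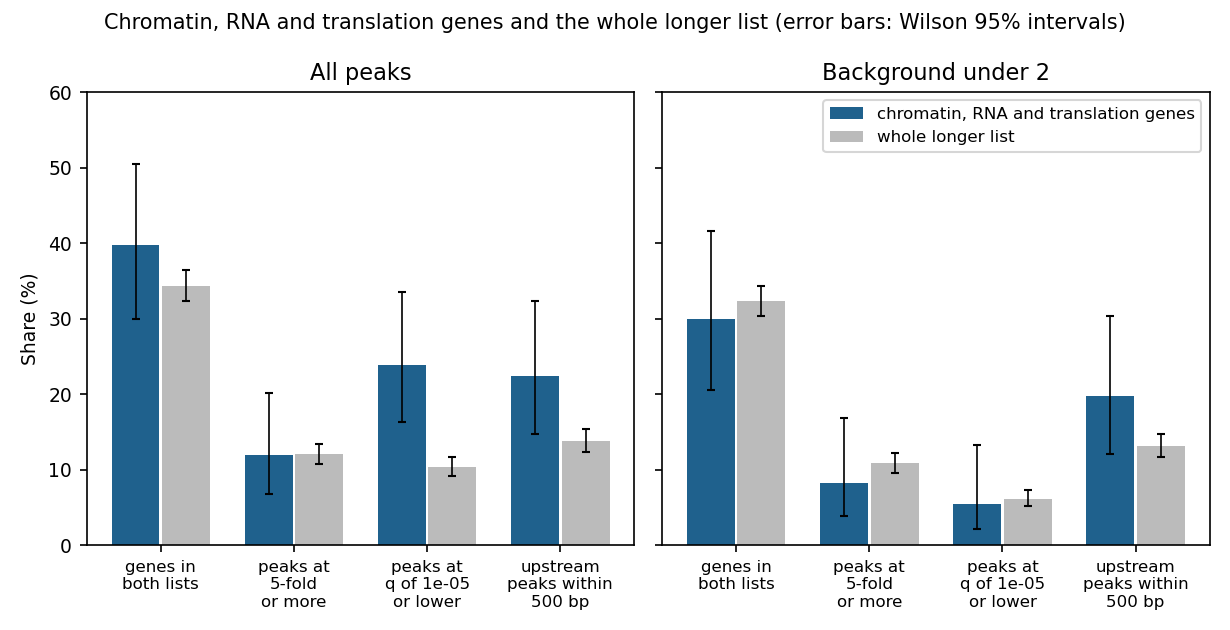
Shares (y, percent) of genes in both lists, of peaks at 5-fold or more, of peaks with a q of 1e-05 or lower and of upstream peaks within 500 bp, for the chromatin, RNA and translation genes (blue) and the whole longer list (grey), for all peaks (left) and for those on a background under 2 (right); error bars are Wilson 95% intervals. The share at a q of 1e-05 or lower is 23.9% against 10.4% on the left and 5.48% against 6.19% on the right.

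Peaks of these genes were spread along the promoter. Of 85 peaks centred within 2000 bp upstream, 19 (22.4%, 14.8 to 32.3) lay in the nearest 500 bp, against 13.8% (12.4 to 15.4) of the list, and 19 (22.4%) lay beyond 1500 bp, against 31.4%. For the 70 genes on a low background, 14 of 71 upstream peaks (19.7%, 12.1 to 30.4) lay in the nearest 500 bp, against 13.1% in the list, an interval that includes the list's share. The nearest were at the ASF1B gene (114 bp), an S10 gene (GH_A03G0303, 176 bp), a dihydrouridine synthase gene (191 bp) and an L9 gene (200 bp). Within 1000 bp lay 30 of the 71 peaks (42.3%), against 38.2% of the list on a background under 2, and beyond 1500 bp 18 (25.4%), against 32.2%. By role, the upstream peaks within 1000 bp were 4 of 9 for chromatin, 3 of 6 for DNA repair, 4 of 8 for transcription and 1 of 2 for other helicases, and those beyond 1500 bp were 4, 1, 1 and 0. Translation genes had 13 of 28 upstream peaks within 1000 bp and 3 beyond 1500 bp. RNA helicase, splicing, decay and RNA-binding genes had 5 of 18 within 1000 bp and 9 beyond 1500 bp, the RS2Z33 and RSZ21 peaks among them. No test between roles, or of a role against the list, was made.

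**Figure D4:**
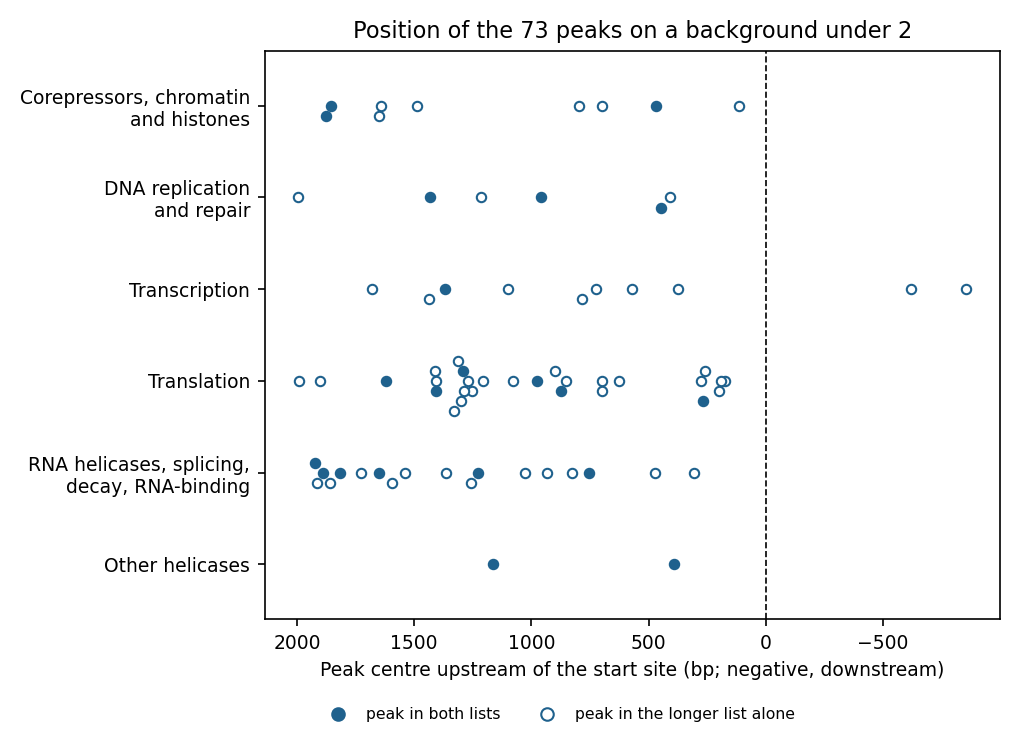
Distance of the peak centre upstream of the start site (x, bp; negative values lie downstream), 1 row for each role, for the 73 peaks of the 70 genes on a background under 2; filled points are peaks in both lists. Of the 28 translation peaks 13 lie within 1000 bp, and of the 18 RNA helicase, splicing, decay and RNA-binding peaks 9 lie beyond 1500 bp.

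Peaks of the 83 genes lay on 24 of the 26 chromosomes, 49 on A and 43 on D chromosomes, an A share of 53.3% (43.1 to 63.1), against 1088 A and 1089 D peaks in the list. More than 1 peak was found at 8 of the 83 genes, against 63 of the 2111, and 5 of these 8 were on a raised background. Homoeologous copies, taken here as identical descriptions on same-numbered A and D chromosomes, both had a peak in 4 cases: rpa49, ribonuclease 3-like protein 3, ribonuclease 1-like, and S10 (GH_A03G0303 and GH_D03G1672). The S10 copies shared a pileup of 5 but lay 176 and 1300 bp upstream. The ribonuclease 1 copies had a pileup of 5 each and lay 1861 and 1593 bp upstream. The peaks of the paired copies had low pileups in 3 of the 4 cases, at different distances in each. Pileups of 4 to 8 made up 88.2% of all peaks of the list, so low pileups at both copies do not set these pairs apart. Pairs among the other genes of the list are not counted here.

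Annotation that the rule did not use followed the descriptions. Of the 44 genes on a low background with a Gene Ontology entry, 31 (70.5%) were placed in the nucleus and 14 (31.8%) in the nucleolus, where ribosomes are assembled, against 25.9% and 3.61% of the 915 annotated genes of the list. Of 37 such genes with a KEGG pathway, 10 (27.0%) were in the ribosome, 6 (16.2%) in the RNA polymerase and 5 (13.5%) in the spliceosome pathway. Of the 507 genes of the list with a KEGG pathway, the shares were 9.47%, 3.75% and 2.37%. These terms derive from the same proteins as the descriptions and are not separate evidence.

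Chromatin genes outside the rule were searched for by words chosen with earlier results of these data known. The highest on a low background were 2 chromomethylase genes, whose enzymes methylate cytosines outside CG sites in plants. GH_D01G2087 (CMT1) had a pileup of 18 against 0.608 (11.8-fold, 1223 bp upstream), and GH_D08G0876 (CMT3-like) had 12 (8.09-fold, 1401 bp upstream), both in both lists and both above all 70 genes on a low background in fold. GH_D13G0610, an arginine methyltransferase of the type that modifies histones, had a pileup of 8 (5.60-fold), and GH_D10G1464 (DNA topoisomerase 3-beta) had 10 (6.84-fold). Genes with a word of the rule that the authors placed in a transcription factor or regulator family were 5 in number. In both lists were 3 of the 5, against 34.3% of all genes. The highest of the 5 was GH_A05G4214 (Mediator subunit 26c), with a pileup of 156 against a raised background of 11.7 (12.3-fold, 1594 bp upstream, in both lists). A MOM1-like gene, GH_A08G2269, had a pileup of 5 (3.73-fold) and was in both lists. The others were the SNF2 remodellers GH_D09G1224 (CHROMATIN REMODELING 5-like) and GH_D08G1654 (CHR10), both of pileup 6 (4.35-fold), and GH_A09G0866 (EBS-like, a reader of histone marks) with a pileup of 5. The words nucleosome, SWI/SNF, cohesin, argonaute, dicer, telomer and exosome each matched 0 genes. Absence from the list does not show that GhD53 does not bind there.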

How the data were processed

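DNA affinity purification sequencing of GhD53 gave 1 IP and 1 input library. Tools named, per the submitters' processing notes, were deepTools 2.5.4, ChIPseeker and BWA, with no role stated; for the peak caller, genome build and cutoffs, nothing is given in the sources used here. Coordinates are those of the files. Per the file headers, the authors deposited for each promoter peak a pileup signal, a fold enrichment (a ratio over background), the −log10 of the p-value and of the q-value, the gene and the distance of the peak centre to its start site. Library totals were not used, so depth is given only by the pileup.

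The background was recovered as (pileup + 1) / fold − 1; a Poisson tail on it gave the deposited −log10 p to within 0.000105 at all 92 peaks. A gene was in both lists when the shorter list named it; of 36 overlapping pairs at these genes, 35 had identical summits and values, so the lists are not independent. Roles were assigned by words in a fixed order. With 1 library a fraction no test was made; shares have Wilson and medians order-statistic 95% intervals. The genes and lists were chosen with earlier results of these data known. Genes named were those with 5-fold or more, a pileup of 10 or more, a topless, histone or chromatin word, 2 or more peaks or a homoeolog with a peak, and the 4 highest folds per role; other genes were named after their values were seen. The split at a background of 2 was chosen after the data were seen. Python 3.11.15, pandas 2.3.3 and scipy 1.17.1 were used. Intervals were tested on simulated data, the word rule on planted descriptions, and the overlap step on peaks of which some were moved away. Overlaps of the 2 lists themselves were checked against bedtools 2.31.1. Alternatives were the shorter list, stricter q-values, whole words, other overlaps, the highest peak per gene, the summit for distance, own promoter only (for the gene count), and, added later, no raised background, 4.5-fold and own promoter only (for shares and medians).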

Additional observations from a re-analysis of the deposited data

How the results depend on the processing

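Results are given for the 83 genes. In the shorter list the rule found 33 genes, and at a q of 1e-05 or lower 17. At the 36 peaks of these genes in the shorter list the median fold was 4.56 and the median pileup 9. Of these peaks 30.6% were at 5-fold or more, 52.8% at a q of 1e-05 or lower and 63.9% on A chromosomes. The same shares over all 756 peaks of the shorter list are not given here, so these values do not set the genes apart from it. In the longer list 23.9% of the peaks of these genes passed a threshold of 4.5-fold, against 20.4% of all peaks. Without the 13 genes on a raised background the share at a q of 1e-05 or lower was 5.48%. The cause of the differences between the lists was not tested. The alternatives without the raised background, at 4.5-fold and, for shares and medians, in the own promoter were chosen after seeing the data. The other alternatives moved a count by less than 1.5 times or a share or median by less than its 95% interval: whole words, a q of 0.05 or lower, peaks in the gene's own promoter, the highest peak per gene, peak overlap in place of genes, and distance from the summit. No paired analysis was possible because each fraction had 1 library. At pileups of 4 to 13, depth limits every comparison between single genes.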

Other observations

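Genes of RNA processing and translation that the rule does not hold were found by further words. In all, 31 genes outside the rule had such a word, chromatin words included, and no organelle word; the words also matched enzymes of metabolism, such as a homocysteine methyltransferase. Their median fold was 3.73, and 13 of the 31 were in both lists, against 34.3% of all genes. For mRNA 3' end formation, GH_D09G0547, a cleavage and polyadenylation specificity factor subunit, had a pileup of 10 (6.84-fold, 1916 bp upstream), and GH_A04G0838, a cleavage factor homolog, had 5 (3.73-fold, 251 bp upstream). The RNA methyltransferase genes GH_A05G3067 and GH_A07G0503 each had a pileup of 7 (4.98-fold, 1542 and 1616 bp upstream), and the nop2-like rRNA methyltransferase gene GH_D13G1491 had 6 (4.35-fold, 1244 bp upstream). For the start of DNA replication, the origin complex subunit 6 genes GH_A07G0590 and GH_A12G1804 both had a pileup of 6 (4.35-fold), 389 and 1148 bp upstream. These genes were chosen after their values were seen.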
